A study of Mus musculus with 3 samples.

Results

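The genes described here are 8 genes of cholesterol synthesis, its regulation and oxysterol formation: Hmgcs1, Idi1, Fdps, Fdft1, Sqle, Lss, Insig1 and Ch25h. They were chosen by symbol in the deposited gene tables, where each symbol named 1 row, so 8 of the 32285 genes were followed. Although the label of the set mentions uptake, none of the 8 is an uptake receptor; 9 genes of sterol uptake, transport and storage are given beside them. Their transcripts were counted in single cells of mouse back skin and summed by cell type and library.

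Cells build cholesterol from acetyl units through the mevalonate pathway, in which Hmgcs1 makes HMG-CoA, Idi1 isomerises isopentenyl pyrophosphate, Fdps makes farnesyl pyrophosphate, Fdft1 makes squalene, Sqle makes squalene epoxide and Lss closes the ring to lanosterol. Insig1 holds the SCAP and SREBP complex in the endoplasmic reticulum when sterols are plentiful, so that SREBP does not switch on the genes of the pathway. Ch25h makes 25-hydroxycholesterol, an oxysterol that acts through Insig proteins and liver X receptors and whose further product attracts immune cells carrying Gpr183. In skin, differentiating keratinocytes place cholesterol in the barrier lipids of the cornified layer and sebaceous glands make large amounts of lipid.

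The 2-week knockout was a C57BL/6 mouse with the K5-Cre-er driver, 2 floxed Piezo1 alleles and 1 floxed Td allele, taken on postnatal day 62. The 3-week knockout carried the driver, 2 floxed Piezo1 alleles and 2 floxed Td alleles and was taken on day 71. The control carried the driver, 1 floxed Piezo1 allele and 1 floxed Td allele and was taken on day 62, so the 3-week knockout has no control of its own age. All 3 groups received tamoxifen from day 48 to day 52. K5-Cre-er uses a promoter of the keratin 5 gene, which is active in basal keratinocytes and hair follicle epithelium, so other lineages carry the floxed alleles without the driver's activity. Each group was 1 library of 3′ tags made on the 10x platform. No value below therefore has a replicate check, and no test between groups was possible. Every ratio is the knockout's level over the control's with an exact 95% interval, every level is in CPM, the gene's UMIs scaled to a common total of the summed cells, and these intervals cover counting error only. Both knockouts were set against the same control library. A 3′ tag counts a transcript once whatever its length, so no length scaling was applied.

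After filtering, the libraries held 9585, 9599 and 4912 cells in the 2-week knockout, the 3-week knockout and the control, with median depths of 7506, 8768 and 9989 UMIs per cell. Epithelial cells numbered 8469, 6910 and 3366. Pairs of libraries shared 17 to 29 barcodes. Piezo1 itself, the deleted gene, was at 22.1 CPM in basal-like cells of the 2-week knockout and 15.3 CPM in those of the 3-week knockout, against 32.4 CPM in the control. The labels do not say which exons are floxed, so a 3′ tag may lie outside the deleted part, and transcripts of other lineages also had ratios below 1 (0.851 at 2 weeks and 0.594 at 3 weeks). Ribosomal genes took 23.4% and 24.1% of UMIs in the knockouts against 19.3% in the control, which shifts every other gene's level in CPM; the median log2 ratio of all ranked genes in basal-like cells at 3 weeks was -0.10, and -0.16 after TMM scaling. Cell types are likenesses by marker genes, in clusters built without the 8 genes or the lists below.

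The 8 genes lie on 7 chromosomes of the mm10 genome. Hmgcs1 (chr13:119690379-119708260) and Idi1 (chr13:8885501-8892451) share chromosome 13, Lss is at chr10:76531588-76557138, Sqle at chr15:59315077-59331192 and Insig1 at chr5:28071363-28078662, all on the plus strand. Fdps (chr3:89093588-89101959), Fdft1 (chr14:63145150-63179578) and Ch25h (chr19:34473778-34475164) are on the minus strand. The last 300 bases of Fdps matched 7 other annotated genes at 90% identity or more over at least 90 bases, and Fdps overlaps Gm43738 and Gm22935 on its own strand, so its counts are uncertain wherever counting could divide reads between copies. The ends of the other 7 members matched no other gene. Hmgcs1 overlaps Gm48342, Idi1 overlaps Gm48574, Fdft1 overlaps Ctsb, Lss overlaps 4930483K19Rik and Ch25h overlaps Gm26902, each on the opposite strand, and the strand setting of the counting is not given in the sources used here.

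Promoter windows from RefSeq (GRCm38.p6, 250 bases before to 50 after the start) were found for 5 of the 8 members. Each was searched on both strands for 4 motifs: a sterol response element (TCACNCCAC), an inverted CCAAT box (ATTGG), an E-box bound by SREBP (TCACGTGA) and an AP-1 site (TGANTCA). The 3 windows printed here are those of the first member of the pathway, of a second synthesis enzyme and of the gene with the largest difference from control in basal-like cells; capitals mark motif matches.
Hmgcs1 (chr13:119690101-119690400, plus strand): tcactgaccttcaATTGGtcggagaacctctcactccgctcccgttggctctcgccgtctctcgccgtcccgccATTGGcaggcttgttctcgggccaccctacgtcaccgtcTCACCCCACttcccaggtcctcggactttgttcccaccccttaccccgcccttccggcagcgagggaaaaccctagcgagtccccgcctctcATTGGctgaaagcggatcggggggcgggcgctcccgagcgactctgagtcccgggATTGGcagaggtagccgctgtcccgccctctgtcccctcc
Idi1 (chr13:8885356-8885655, plus strand): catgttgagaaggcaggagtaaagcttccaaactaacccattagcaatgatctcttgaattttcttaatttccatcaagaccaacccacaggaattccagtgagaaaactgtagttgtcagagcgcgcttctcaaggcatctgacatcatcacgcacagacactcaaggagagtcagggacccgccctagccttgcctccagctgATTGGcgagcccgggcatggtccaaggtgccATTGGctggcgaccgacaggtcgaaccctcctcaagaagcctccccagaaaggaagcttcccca
Ch25h (chr19:34475099-34475398, minus strand): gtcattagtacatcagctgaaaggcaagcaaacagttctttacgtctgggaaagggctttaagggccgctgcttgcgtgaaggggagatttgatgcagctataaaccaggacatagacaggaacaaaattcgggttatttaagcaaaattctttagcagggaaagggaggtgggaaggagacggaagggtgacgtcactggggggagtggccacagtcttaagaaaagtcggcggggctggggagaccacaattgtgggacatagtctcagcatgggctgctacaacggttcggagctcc

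Hmgcs1 held 1 sterol response element match and 4 ATTGG matches, and Idi1 held 2 ATTGG matches. The windows of Lss and Insig1 each held 1 ATTGG match, and the Ch25h window held 0 matches to any of the 4. Among all 32851 windows of the same length, TCACNCCAC was found in 1.24%, ATTGG in 37.4%, TCACGTGA in 0.974% and TGANTCA in 7.81%. The E-box and AP-1 letters were in none of the 5 members' windows. A match is a description of letters in these windows and not a bound site.

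In every library the 6 synthesis enzymes were highest in sebaceous gland-like cells, at a summed 1838 CPM in 17 cells of the 2-week knockout and 3723 CPM in 104 cells of the 3-week knockout, against 2957 CPM in 93 cells of the control. Suprabasal-like cells came next among the classes drawn, at 807 and 835 CPM in the 2-week and 3-week knockouts and 713 CPM in the control. Bulge-like cells had 425 and 308 CPM in the knockouts against 507 CPM in the control, upper hair follicle-like cells 344 and 307 CPM against 281 CPM, and basal-like cells 272 and 303 CPM against 285 CPM. The enzyme sum thus placed sebaceous gland-like and suprabasal-like cells above basal-like cells in all 3 libraries, and bulge-like cells above upper follicle-like and basal-like cells, although these 3 classes were within a few CPM of each other in the 3-week knockout.

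Lss, the lanosterol synthase, was concentrated in sebaceous gland-like cells more than in any other class drawn. It stood at 71.6 and 168 CPM there in the 2-week and 3-week knockouts and 153 CPM in the control, whereas no other class in the plot by class passed 13.9 CPM. Sebaceous gland-like cells held 24 of 542 epithelial Lss UMIs in the 2-week knockout and 410 of 1070 in the 3-week knockout, against 284 of 565 in the control. The epithelial Lss ratio was 0.542 at 2 weeks and 0.964 at 3 weeks, beside 17 and 104 sebaceous gland-like cells in the knockouts and 93 in the control; the part of those cells in it was not tested. Hmgcs1 was at 468 and 1193 CPM in the knockouts' sebaceous gland-like cells and 851 CPM in the control's, Fdps at 504 and 922 CPM against 763 CPM, and Idi1 at 471 and 864 CPM against 714 CPM. Fdft1, Sqle and Insig1 were lower there than those 3 genes in each library, between 104 and 320 CPM. Ch25h, in contrast, had 1, 2 and 4 UMIs in those cells.

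**Figure D1:**
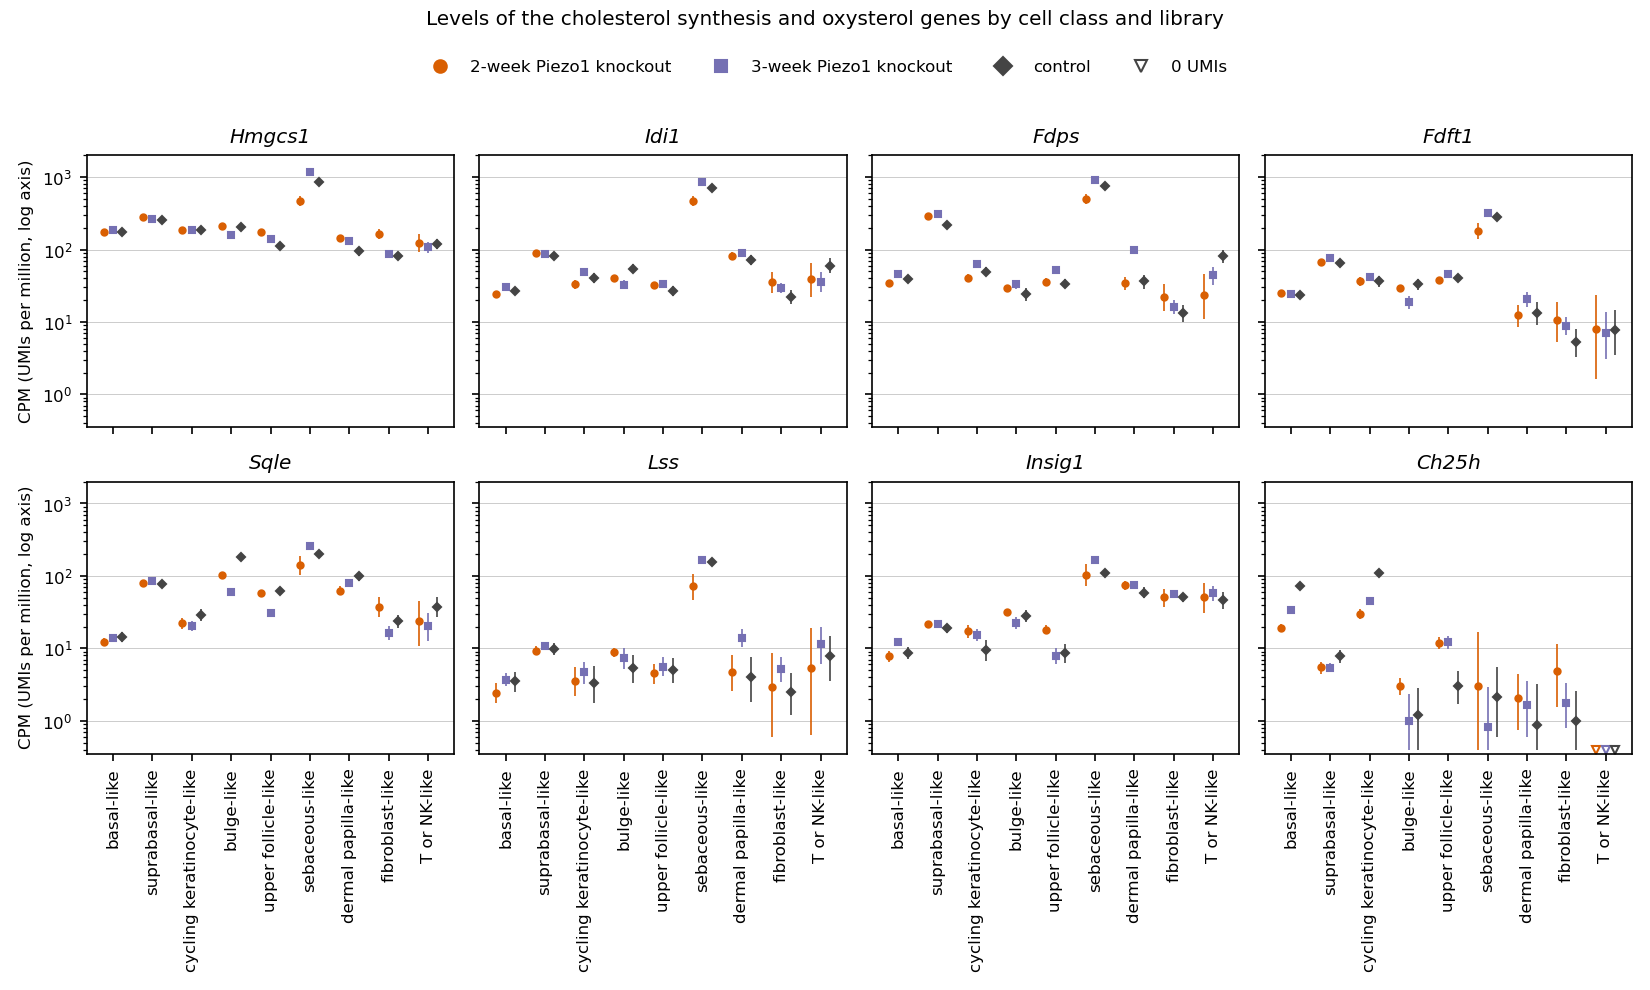
Level of each of the 8 genes (CPM, log axis) in 9 cell classes, with 1 point per library (2-week knockout, 3-week knockout, control) and exact 95% Poisson intervals; open triangles mark sums of 0 UMIs. The 7 synthesis and regulator genes are not highest in basal-like cells, whereas Ch25h is highest in basal-like and cycling keratinocyte-like cells, where the control lies above both knockouts.

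Ch25h, the cholesterol 25-hydroxylase, was lower in basal-like keratinocytes of both knockouts. It had 329 UMIs (19.2 CPM) in the 2-week knockout and 824 UMIs (33.6 CPM) in the 3-week knockout, against 829 UMIs (72.7 CPM) in the control. At 2 weeks the ratio was 0.264 (0.231 to 0.300), and at 3 weeks it was 0.462 (0.419 to 0.509). Both ratios lay below 1 under every processing alternative that was run, although giving each cluster equal weight brought the 3-week ratio to 0.884.

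Over the class as a whole, fewer basal-like cells held the transcript, and those that did held fewer copies. Cells with at least 1 Ch25h UMI made up 9.03% (136 cells) of the 2-week knockout's basal-like cells and 13.0% (249 cells) of the 3-week knockout's, against 19.1% (146 cells) of the control's. Median depth was also lower in the knockouts, at 11172 and 12378 UMIs per cell against 14846 UMIs, but with each cell thinned to 2000 UMIs the shares kept their order at 2.56% and 4.44% against 8.24%. No T or natural killer-like cell held a Ch25h UMI in any library (0 of 100, 0 of 287 and 0 of 216 cells, at median depths of 3320, 3682 and 4471 UMIs). These cells are shallower than basal-like cells, and the part of free transcript in the basal-like shares was not tested. The mean count in basal-like cells with the transcript, without thinning, was 2.42 and 3.31 UMIs in the knockouts against 5.68 UMIs in the control. Cells with 5 or more UMIs numbered 17 (1.13%) and 59 (3.08%) in the knockouts, against 46 (6.01%) in the control, and the highest single cell held 17 and 26 UMIs against 54 UMIs.

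The basal-like class was made up of 3 clusters that the libraries filled differently. Cluster 1, led by Epgn, Krt14 and Fcgbp, held 695 of 1506 and 1249 of 1915 basal-like cells in the knockouts but 155 of 765 in the control, where cluster 5, led by Epgn, Serpinb2 and Ifi202b, held 495. Within cluster 5 Ch25h was at 21.3 CPM in the 2-week knockout and 68.2 CPM in the 3-week knockout, against 97.4 CPM in the control, ratios of 0.219 (0.182 to 0.262) and 0.700 (0.614 to 0.796). Within cluster 1 the direction was the opposite, at 23.2 and 28.8 CPM in the knockouts against 14.1 CPM in the control, with ratios of 1.65 and 2.05 (1.41 to 3.09 for the 3-week one). Cells with a Ch25h UMI made up 10.4% and 13.3% of cluster 1 in the knockouts against 11.6% in the control. Their mean counts were 2.54 and 2.84 UMIs against 1.61 UMIs. Cluster 10, led by Fcgbp, Krt5 and Krt14, had 3, 20 and 6 UMIs. The 8 basal markers totalled 21067 and 24466 CPM in the class against 20508 CPM, the 9 suprabasal markers 1472 and 1618 CPM against 1261 CPM and the 8 bulge markers 4337 and 3946 CPM against 4285 CPM, and their part in the difference was not tested. Between clusters 1 and 5 Ch25h differed little in the 2-week knockout, at 23.2 and 21.3 CPM, but widely in the control, at 14.1 and 97.4 CPM. The part of the cluster shares in the lower Ch25h of the class was not tested.

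Outside the basal-like class, Ch25h was lower in knockouts in the cycling cluster and in a cluster with no class name. Cycling keratinocyte-like cells had 29.8 and 45.7 CPM in the 2-week and 3-week knockouts against 110 CPM in the control, ratios of 0.271 and 0.415. Cluster 3, an epithelial cluster left unnamed, had 16.6 and 22.6 CPM in 622 and 562 knockout cells against 64.9 CPM in 589 control cells. Suprabasal-like cells were lower by less, at 5.46 and 5.42 CPM against 7.81 CPM. Over all epithelial cells the 2-week ratio was 0.298 (0.275 to 0.322) and the 3-week ratio 0.462 (0.432 to 0.494). Cluster 5 alone held 14.7% and 19.8% of epithelial Ch25h UMIs in the knockouts, in 5.94% and 4.75% of the epithelial cells, against 43.0% in 14.7% of cells in the control.

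Upper hair follicle-like cells went the other way, but that direction depended on which clusters entered the class. They had 114 UMIs (12.0 CPM) in the 2-week knockout and 100 UMIs (12.2 CPM) in the 3-week knockout, against 16 UMIs (2.98 CPM) in the control, ratios of 4.01 (2.37 to 7.26) and 4.08 (2.39 to 7.42). Within cluster 6, led by Defb6 and Krt79, the levels were 13.8 and 13.4 CPM in the knockouts against 2.61 CPM. With cluster 3 counted in the class, an alternative added after its values were seen, the ratios were 0.362 and 0.437, and several other alternatives also turned the direction. The 8 basal markers totalled 6195 and 5503 CPM in upper hair follicle-like cells of the knockouts against 4509 CPM in the control, and their part in the difference was not tested. Bulge-like cells were near the floor, with 59, 5 and 5 UMIs. Fibroblast-like cells had 5 and 9 UMIs in the knockouts and 4 in the control. Blood endothelial-like cells, which are no part of the keratin 5 lineage, held 24 and 22 Ch25h UMIs (33.4 and 29.5 CPM) in the knockouts and 16 UMIs (22.4 CPM) in the control. They numbered 95 and 104 cells in the knockouts and 75 in the control, short of the 100 cells per library needed for a comparison.

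**Figure D2:**
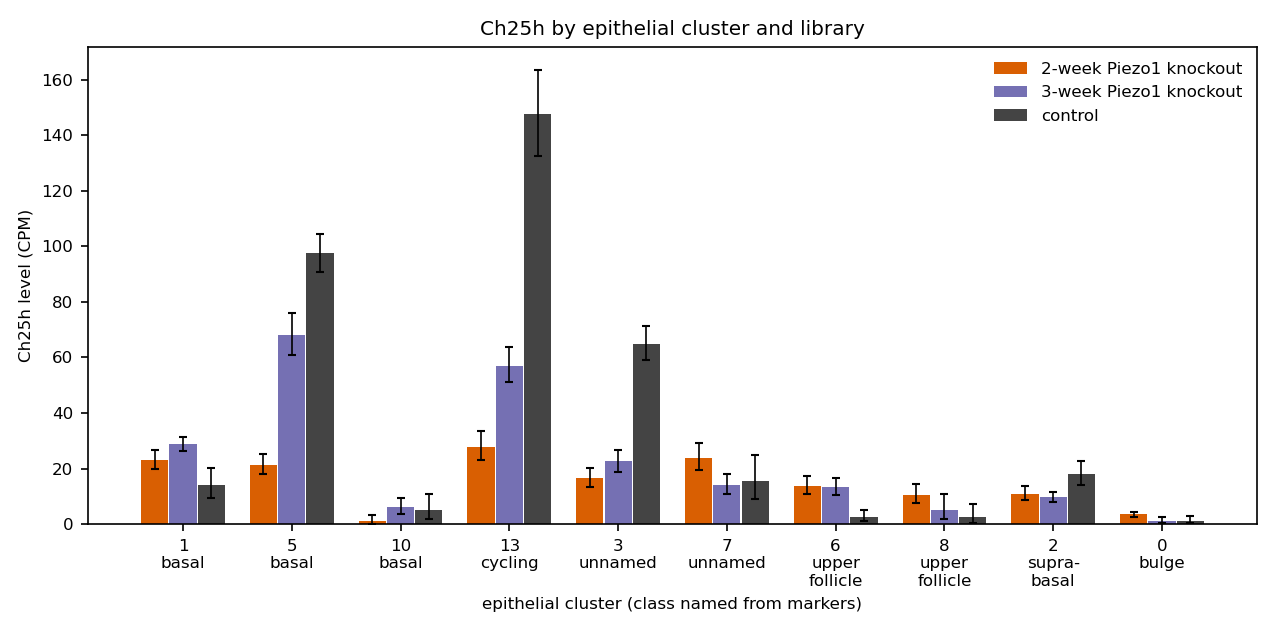
Ch25h level (CPM, linear axis from 0) in 10 epithelial clusters for the 2-week knockout, the 3-week knockout and the control, with exact 95% Poisson intervals. In clusters 5, 13 and 3 both knockouts lie below the control, while in clusters 1 and 6 both lie above it.

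Across 24 sums of 8 classes and 3 libraries, the genes whose levels followed Ch25h most closely among 5850 were Dsg2, Tnip3, Depdc7, Pkp4 and Kif13a, with Pearson r between 0.87 and 0.91. Dsg2 encodes a desmoglein of desmosomes and Pkp4 a plakophilin of cell junctions. The other members were far from it, from -0.66 for Insig1 to 0.35 for Hmgcs1. The genes most like the summed 6 enzymes were Pmvk, itself the phosphomevalonate kinase of the pathway, at 0.89, then Them5, Gcat, Ctnnbip1 and Tspan8 at 0.82 to 0.83. These r values describe sums that share libraries, depth and cell classes, and carry no p.

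Summed over the basal-like class the synthesis enzymes lay close to control, although the Hmgcs1 ratios were below 1 in each of its clusters. Hmgcs1, the HMG-CoA synthase, had 173 and 185 CPM in the 2-week and 3-week knockouts against 177 CPM in the control, ratios of 0.976 (0.922 to 1.03) and 1.05 (0.993 to 1.10). Their summed level was 272 and 303 CPM against 285 CPM, ratios of 0.954 (0.912 to 0.998) and 1.06 (1.02 to 1.11); these are so near 1 that other processing put the sum on either side of it. Idi1 was at 24.5 and 30.8 CPM against 26.7 CPM, and Fdps at 34.0 and 45.2 CPM against 39.5 CPM. Fdft1 was at 25.4 and 24.2 CPM against 23.4 CPM, and Sqle at 12.3 and 13.9 CPM against 14.5 CPM. No enzyme was 1.5-fold from control; Lss, the least counted, had 42 UMIs (2.45 CPM) in the 2-week knockout and 91 UMIs (3.71 CPM) in the 3-week knockout, against 40 UMIs (3.51 CPM) in the control. Insig1 was at 7.81 CPM in the 2-week knockout and 12.2 CPM in the 3-week knockout against 8.69 CPM in the control, with a 3-week ratio of 1.41 (1.12 to 1.79). Within cluster 1 Hmgcs1 was at 196 and 191 CPM in the knockouts against 261 CPM in the control. Its ratios there were 0.752 (0.681 to 0.831) and 0.731 (0.667 to 0.803). They were 0.882 and 0.928 (0.841 to 1.02) in cluster 5, and 0.801 and 0.836 in cluster 10. The summed enzymes had ratios of 0.776 and 0.801 in cluster 1, 0.869 and 0.962 in cluster 5, and 0.819 and 0.858 in cluster 10. The part of the cluster shares was not tested.

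Calls were made for genes with at least 50 UMIs over both libraries and 50 CPM in 1 of them, as a ratio of at least 1.5-fold with 5 CPM added to each side. In basal-like cells 2 of the 8 members, Hmgcs1 and Ch25h, could be ranked at each time, and 1 of them, Ch25h, was lower and 0 were higher. Ch25h reached 50 CPM in the control only (72.7 CPM), so the limit favoured its call as lower. Of all ranked genes there, 3.11% were higher and 5.04% lower at 2 weeks, and 4.67% were higher and 12.9% lower at 3 weeks. Because few members reached 50 CPM, a limit of 10 CPM was added after the values were seen. With it 6 members at 2 weeks and 7 at 3 weeks could be ranked, and again Ch25h alone was called, as lower. Ch25h passed this limit in each library. At that limit 2.37% of all genes were higher and 3% lower at 2 weeks, and 4.43% higher and 7.4% lower at 3 weeks. The members' median log2 ratio was -0.14 at 2 weeks and 0.06 at 3 weeks, beside 0.04 and 0.02 over all genes.

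Among the other pathway genes, the basal-like cells differed from control in few. Of 15 further enzymes of mevalonate and sterol synthesis, 8 reached 10 CPM at 2 weeks and 9 at 3 weeks. Msmo1, a sterol C4-methyl oxidase, was lower in both knockouts, at 40.4 and 39.5 CPM against 66.1 CPM, ratios of 0.611 and 0.598. Dhcr7, which makes cholesterol from its last precursor, was at 13.6 CPM in the 3-week knockout against 5.09 CPM in the control (ratio 2.68). The 15 enzymes summed to 239 and 270 CPM in the knockouts against 269 CPM in the control. None of the 8 sterol sensing genes was 1.5-fold from control at either time. Of the uptake, transport and storage genes 0 of 5 at 2 weeks and 1 of 6 at 3 weeks were higher, namely Stard4, a sterol carrier, at 11.6 CPM against 5.35 CPM. Of 6 liver X receptor genes, 0 at 2 weeks and 2 at 3 weeks were higher, the cholesterol exporter Abcg1 at 12.4 CPM against 6.05 CPM and Mylip, an E3 ligase of lipoprotein receptors, at 28.5 CPM against 16.7 CPM. Dhcr7, Stard4, Abcg1 and Mylip met the limit of 10 CPM only and were named after their values were seen. At 3 weeks Dhcr7, Stard4 and Abcg1 reached it in the knockout and not in the control, so the limit favoured their calls as higher. Both measured oxysterol genes lay within 1.5-fold.

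**Figure D3:**
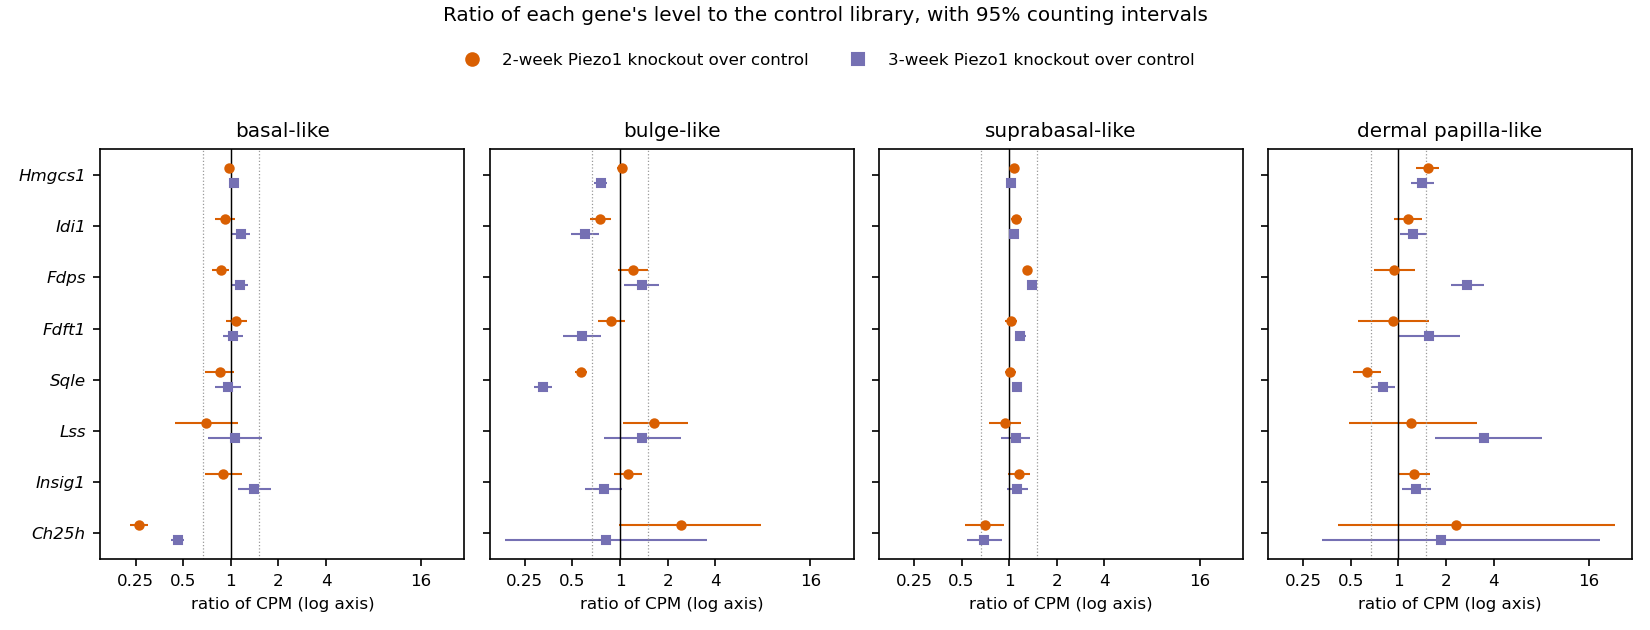
Ratio of each knockout's level to the control's (log axis) for the 8 genes in basal-like, bulge-like, suprabasal-like and dermal papilla-like cells, 2-week knockout above 3-week knockout, with exact 95% intervals; the solid line is at 1 and the dotted lines at 1.5-fold either way. Ch25h stands apart in basal-like cells, Sqle in bulge-like cells, and Fdps and Lss in dermal papilla-like cells at 3 weeks.

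Sqle, the squalene epoxidase and a rate-limiting enzyme of the later pathway, was lower in bulge-like cells of both knockouts, more so at 3 weeks. It had 2042 UMIs (103 CPM) in the 2-week knockout and 299 UMIs (59.6 CPM) in the 3-week knockout, against 749 UMIs (183 CPM) in the control. The ratios were 0.565 (0.519 to 0.615) and 0.326 (0.284 to 0.374), with ranges of 0.539 to 0.658 and 0.298 to 0.366 over all alternatives run. Cells with a Sqle UMI were 39.8% and 22.8% of bulge-like cells in the knockouts against 61.9% in the control. Depth differed too, at medians of 6500 and 5555 UMIs per cell against 8161 UMIs; thinned to 2000 UMIs, the shares were 16.4% and 9.50% against 29.3%. In basal-like cells, which are deeper, 11.1% and 14.0% of knockout cells and 15.4% of control cells had a Sqle UMI.

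The difference was present within the clusters that held most bulge-like cells. In cluster 0, led by Krt24 and Postn, Sqle was at 94.5 and 48.4 CPM in the knockouts against 170 CPM in the control. Cluster 14, led by Fgf18 and Sncg, had 220 and 125 CPM against 309 CPM. Cluster 17 held 25, 4 and 1 UMIs, too few to order. Beyond the bulge, Sqle was also lower in cluster 11, an unnamed epithelial cluster led by Nppc and Ccer2, at 103 and 89.7 CPM against 165 CPM, and in the upper follicle cluster 8, led by Pthlh and Fst, at 92.7 and 54.1 CPM against 139 CPM. Ratios nearer to 1 were found in upper follicle cluster 6 (0.848 and 0.635), in basal cluster 5 (0.795 and 0.785) and in the unnamed cluster 7 (0.790 and 0.684). In suprabasal-like cells it was not lower, at 78.6 and 86.1 CPM against 77.3 CPM. In the bulge-like sums the 8 bulge markers totalled 13254 and 13155 CPM in the knockouts against 11884 CPM in the control, and the 9 suprabasal markers 2490 and 3338 CPM against 2949 CPM. Outside these clusters, T or natural killer-like cells had 9 and 23 UMIs (23.9 and 20.2 CPM) in the knockouts against 44 UMIs (37.8 CPM) in the control, with a 3-week ratio of 0.535 (0.308 to 0.905), and the unnamed cluster 3 had 31.6 and 16.2 CPM against 28.6 CPM. Sqle ratios were also below 1, with intervals below 1, in dermal papilla-like cells (0.632 and 0.801) and cycling keratinocyte-like cells (0.768 and 0.692). Fibroblast-like cells had Sqle ratios of 1.59 at 2 weeks and 0.686 at 3 weeks. The difference between cell types was not tested.

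**Figure D4:**
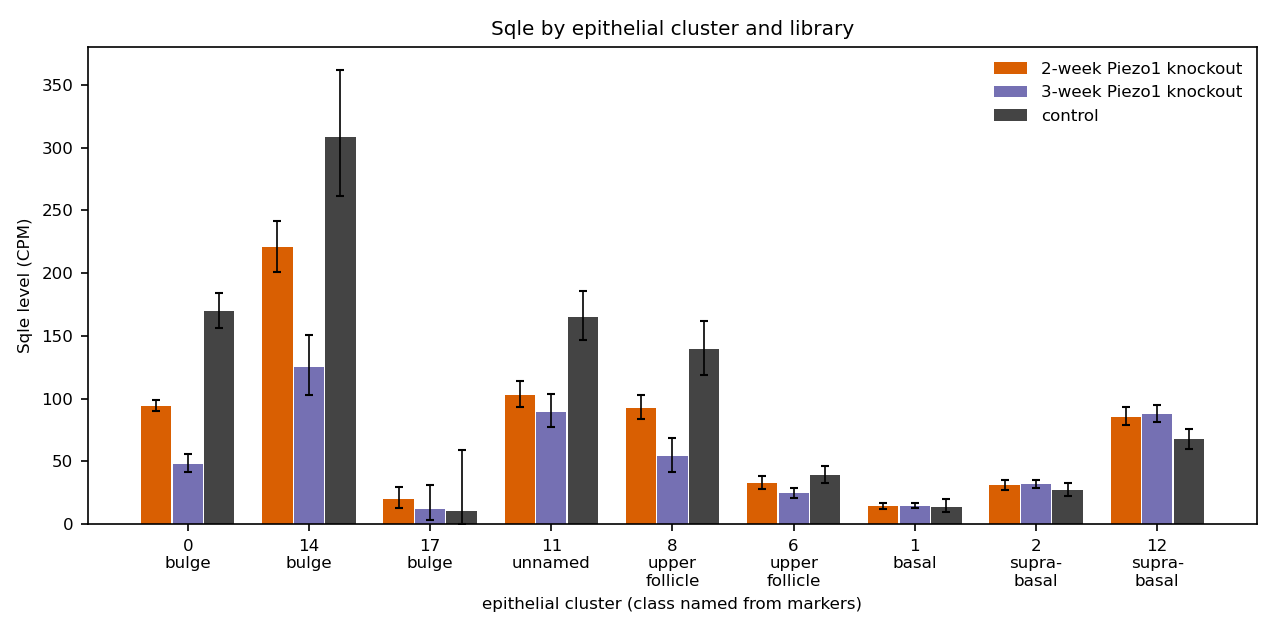
Sqle level (CPM, linear axis from 0) in 9 epithelial clusters for the 2-week knockout, the 3-week knockout and the control, with exact 95% Poisson intervals. In clusters 0, 14, 11 and 8 the 2-week knockout lies below the control and the 3-week knockout lower still, and in suprabasal clusters 2 and 12 it does not.

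Other enzymes in bulge-like cells differed less, and not all one way. Idi1 was at 40.9 and 32.9 CPM in the 2-week and 3-week knockouts against 54.6 CPM in the control, ratios of 0.749 and 0.602. Fdft1 was at 29.1 and 18.9 CPM against 32.9 CPM, with a 3-week ratio of 0.575 (0.438 to 0.753) that ranged to 0.900 over the alternatives. Hmgcs1 was at 214 and 156 CPM against 207 CPM. Fdps lay above control, at 29.1 and 33.1 CPM against 24.1 CPM. The 6 enzymes summed to 425 and 308 CPM against 507 CPM, ratios of 0.838 (0.799 to 0.880) and 0.608 (0.569 to 0.650). Lss (174, 37 and 22 UMIs) stood at 8.80 and 7.38 CPM against 5.37 CPM, and Insig1 at 31.8 and 22.3 CPM against 28.3 CPM.

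With the limit of 50 CPM, 3 of the 8 members could be ranked in bulge-like cells, and 1 was lower at 2 weeks (Sqle) and 2 at 3 weeks (Sqle and Idi1). Idi1 reached 50 CPM in the control only (54.6 CPM), so the limit favoured its call as lower. Over all ranked genes 2.83% were higher and 4.95% lower at 2 weeks, and 5.69% higher and 14.1% lower at 3 weeks. At 10 CPM, 6 members could be ranked at each time, 1 lower at 2 weeks and 3 at 3 weeks, where Fdft1 was added. The background was 2.28% higher and 2.83% lower at 2 weeks, and 5.97% higher and 7.92% lower at 3 weeks. The members' median log2 ratio at that limit was -0.06 at 2 weeks and -0.52 at 3 weeks, beside -0.00 and 0.01 over all genes. Of the other enzymes Msmo1 was lower at 3 weeks, at 28.1 CPM against 53.4 CPM, and Dhcr7 was higher in both knockouts, at 18.7 and 20.3 CPM against 10.0 CPM. The 15 other enzymes summed to 238 and 239 CPM in the knockouts against 251 CPM in the control, and no gene of the sensing, uptake, liver X receptor or oxysterol lists was 1.5-fold from control in bulge-like cells.

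In the upper hair follicle-like class Hmgcs1 was higher, at 175 CPM in the 2-week knockout and 140 CPM in the 3-week knockout against 113 CPM in the control, ratios of 1.54 (1.41 to 1.70) and 1.23. Sqle was at 58.4 and 30.3 CPM against 61.4 CPM, with a 3-week ratio of 0.494 (0.418 to 0.585) that reached 0.885 under other processing. At 2 weeks Sqle was lower within cluster 8 of the class, at 92.7 CPM against 139 CPM. In cluster 6 it was at 33.0 CPM against 38.9 CPM, a ratio of 0.848 (0.673 to 1.07) whose interval holds 1. Cluster 8, where Sqle was higher than in cluster 6, held 577 of 1057 cells of the class in the 2-week knockout against 156 of 437 in the control. The part of these shares in the class ratio was not tested. Fdps was at 35.8 and 51.9 CPM against 33.8 CPM, Idi1 at 32.1 and 33.9 CPM against 27.0 CPM, and Fdft1 at 38.2 and 45.7 CPM against 40.3 CPM. Insig1 was at 18.2 CPM (173 UMIs) at 2 weeks and 7.80 CPM at 3 weeks against 8.58 CPM in the control, and its 2-week ratio of 2.12 ranged from 1.04 to 6.44 over the alternatives. Of the 2 members ranked at 2 weeks 1 was higher (Hmgcs1) and 0 lower, and of the 3 ranked at 3 weeks 0 were higher and 1 lower (Sqle), in a background of 6.47% higher and 8.08% lower at 2 weeks and 4.24% higher and 12.1% lower at 3 weeks. At 3 weeks Sqle reached 50 CPM in the control and not in the knockout, so the limit favoured its call as lower.

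In suprabasal-like cells, where the enzymes are high, 5 of the 8 members could be ranked and 0 were past 1.5-fold in either direction at either time. Over all ranked genes 2.4% were higher and 6.19% lower at 2 weeks, and 3.43% higher and 10% lower at 3 weeks. Hmgcs1 was at 277 and 267 CPM in the knockouts against 259 CPM in the control. Idi1 was at 89.8 and 86.9 CPM against 80.8 CPM, and Fdft1 at 66.8 and 76.3 CPM against 64.7 CPM. Lss was at 9.31 and 10.9 CPM against 9.87 CPM, and Insig1 at 21.8 and 21.3 CPM against 18.9 CPM. Fdps departed most, at 286 and 308 CPM against 221 CPM, ratios of 1.30 and 1.40. In cluster 12, led by Krt1, Krt10 and Krt77, Fdps was at 348 and 342 CPM in the knockouts against 169 CPM in the control, ratios of 2.05 (1.89 to 2.24) and 2.02 (1.86 to 2.19), whereas the late cluster 15, led by Lor and Lce1m, had 509 and 518 CPM against 448 CPM. Cluster 2, led by Krt1, Krt10 and Mt4, held most cells of the class (649 of 1008 and 896 of 1521 in the knockouts, 241 of 462 in the control) and had 59.3 and 90.1 CPM against 55.3 CPM, ratios of 1.07 and 1.63. Cluster 15, where Fdps was highest, held 128 and 344 of the knockouts' cells against 59 of the control's. Differences between clusters were not tested, and Fdps has near copies elsewhere in the genome.

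Dermal papilla-like cells are mesenchymal and lie outside the keratin 5 lineage, yet Fdps was higher in them in the 3-week knockout. It had 100 UMIs (34.1 CPM) in the 2-week knockout and 362 UMIs (98.5 CPM) in the 3-week knockout, against 82 UMIs (36.2 CPM) in the control, ratios of 0.943 and 2.72 (2.14 to 3.50). Lss was higher as well, at 14 UMIs (4.78 CPM) and 51 UMIs (13.9 CPM) against 9 UMIs (3.97 CPM), a 3-week ratio of 3.49 (1.70 to 8.07). Markers of suprabasal cells also differed in these sums: the 9 markers, all detected, totalled 261 and 1223 CPM in the knockouts against 299 CPM in the control. The suprabasal-like cells of the 3-week knockout themselves had 46312 CPM of those markers beside 308 CPM of Fdps. The 7 sebaceous markers totalled 137 and 130 CPM against 147 CPM, and the 8 basal markers 1142 and 913 CPM against 1281 CPM. The part of such transcripts in the Fdps and Lss values was not tested beyond these levels.

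At 3 weeks the other members in dermal papilla-like cells were closer to control than Fdps and Lss. At 2 weeks Hmgcs1, with a ratio of 1.53 (1.30 to 1.81), and Sqle, with 0.632 (0.517 to 0.771), were farther from it. Hmgcs1 was at 144 and 133 CPM in the knockouts against 94.1 CPM in the control, and Sqle at 62.5 and 79.2 CPM against 98.9 CPM. Idi1 was at 81.9 and 88.2 CPM against 71.1 CPM, Fdft1 at 12.3 and 20.7 CPM against 13.2 CPM, and Insig1 at 74.1 and 75.9 CPM against 58.7 CPM. The 6 enzymes summed to 340 and 434 CPM against 317 CPM. Of the 4 members ranked at 2 weeks 1 was higher (Hmgcs1) and 1 lower (Sqle), and of the 5 ranked at 3 weeks 1 was higher (Fdps) and 0 lower. Fdps reached 50 CPM in the 3-week knockout only (98.5 CPM), so the limit favoured its call as higher. Over all ranked genes 3.51% were higher and 6.34% lower at 2 weeks, and 7.76% higher and 10.4% lower at 3 weeks. At 10 CPM the counts were 1 higher and 1 lower of 6 at 2 weeks, and 2 higher and 0 lower of 7 at 3 weeks, in a background of 3.94% higher and 5.07% lower and of 9.13% higher and 7.48% lower. Lss, added at 3 weeks, reached 10 CPM in that knockout only (13.9 CPM against 3.97 CPM), so the limit favoured its call as higher.

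Some pathway genes outside the 8 were higher in the same cells at 3 weeks and were named after their values were seen. Of 15 other enzymes 11 reached 10 CPM and 3 were higher, among them Msmo1 at 29.9 CPM against 15.5 CPM and the sterol dehydrogenase Nsdhl at 12.5 CPM against 4.86 CPM. Nsdhl reached 10 CPM in the 3-week knockout and not in the control, so the limit favoured its call as higher. Of 7 measured sensing genes 1 was higher, Srebf1, which encodes a SREBP, at 41.6 CPM against 24.7 CPM. Of 9 uptake, transport and storage genes 2 were higher, and of 5 liver X receptor genes 1 was higher; the median log2 ratios of these lists were -0.16 and -0.25, beside 0.04 over all genes, of which 9.13% were higher. The lipoprotein receptor Scarb1 was at 53.1 CPM against 30.9 CPM, Stard4 at 26.4 CPM against 12.4 CPM, and Apoe, a lipoprotein component, at 1457 CPM against 907 CPM. At 2 weeks the 15 enzymes had 0 past 1.5-fold, while Scarb1 and the lysosomal lipase Lipa had ratios of 1.60 and 2.01.

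In sums over classes, Insig1 was higher outside the epithelium than within it. Summed over other lineages it stood at 59.7 and 57.4 CPM in the knockouts and 50.6 CPM in the control. Epithelial cells of the same libraries had 19.8, 20.3 and 17.6 CPM. Sebaceous gland-like cells, counted as epithelial, were an exception and lay above both sums in each library. Langerhans-like cells had 102 and 68.1 CPM in the knockouts and 72.6 CPM in the control. They numbered 49 and 164 cells in the knockouts and 70 in the control, too few for a comparison. In cycling keratinocyte-like cells Insig1 was at 17.2 and 15.2 CPM against 9.44 CPM. The enzymes of these cycling cells lay on both sides of control or close to it: Hmgcs1 was at 184 and 185 CPM in the knockouts against 185 CPM, and Idi1 at 33.3 and 49.2 CPM against 40.1 CPM. Sqle was at 22.3 and 20.1 CPM against 29.1 CPM, and Fdps at 40.2 and 63.9 CPM against 49.5 CPM. Fibroblast-like cells had Hmgcs1 at 165 CPM in the 2-week knockout and 87.4 CPM in the 3-week knockout against 81.9 CPM in the control, a 2-week ratio of 2.01 that ranged from 1.01 to 2.07 over the alternatives. In T or natural killer-like cells Fdps had 9 UMIs (23.9 CPM) and 50 UMIs (43.9 CPM) in the knockouts against 94 UMIs (80.7 CPM) in the control. The 3-week ratio of 0.544 turned to 1.35 without the highest cell, 1.16 with cells thinned and 1.08 as a mean over cells. The 9 suprabasal markers totalled 769 and 1323 CPM there against 2230 CPM in the control, and their part in the Fdps difference was not tested.

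Between members, levels over the 24 sums varied together only in part. The closest pair was Hmgcs1 and Fdft1, with a Pearson r of 0.80, then Idi1 and Fdps at 0.72, and the farthest was Fdft1 and Insig1 at -0.68. Among called members, the largest difference in basal-like cells was that of Ch25h and in bulge-like cells that of Sqle. Sqle had ratios of 0.849 and 0.958 in basal-like cells. Ch25h was near the floor in bulge-like cells, with at most 59 UMIs. In cycling keratinocyte-like cells both genes were lower in both knockouts. The ratios there were 0.271 and 0.415 for Ch25h, and 0.768 (0.591 to 0.998) and 0.692 (0.540 to 0.889) for Sqle.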

How the data were processed

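Single cells of mouse back skin, dissociated with collagenase I and then trypsin per the labels' protocols, were profiled in 3 libraries of 3′ tags, 1 per group. The deposited matrices hold raw UMI counts per gene and barcode, made by the authors with Cell Ranger 6.1.2 on mm10 per the submitters' processing notes; the sources used here do not name the annotation release, the intron setting or the strand setting. The matrices held 11144, 11186 and 5621 barcodes (2-week knockout, 3-week knockout, control), with at least 500 UMIs each. Barcodes were dropped when they had under 500 genes (960, 754 and 363), when mitochondrial counts reached 15% (973, 954 and 415), or when Scrublet in scanpy 1.11.5, run per library, called them doublets (284, 394 and 110).

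Cells were clustered together without the 53 genes of the lists used here (2000 variable genes, 30 components, 15 neighbours, Leiden resolution 1, leidenalg 0.10.2), giving 36 clusters. Clusters were named from marker lists with a lead of 0.25 and 3 detected markers; this naming rule was set after the clusters were seen. The members, the lists and the markers were chosen with earlier results of these data known. UMIs were summed per class and library, given in CPM, and compared as ratios with exact conditional 95% intervals (SciPy 1.17.1); CPM intervals are exact Poisson. Classes needed 100 cells per library to be compared. The ratio code was tested on simulated data. Log2 ratios and calls used 5 CPM added to both sides.

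All 8 members were named in basal-like, bulge-like, suprabasal-like and sebaceous gland-like cells, and only some in other classes. Members left out of a class were not all unchanged. Idi1 had a 3-week ratio of 0.599 (0.397 to 0.893) in T or natural killer-like cells. In fibroblast-like cells its 2-week ratio was 1.61 (1.07 to 2.39). From other lists, each ranked gene 1.5-fold from control in basal-like cells was named, at most 5 per list. After seeing the data, 3 alternatives were added: the limit of 10 CPM, cluster 3 in the upper hair follicle-like class, and T or natural killer-like cells among the classes. TMM factors came from edgeR 4.0.16, used for scaling only. Gene ends were compared by BLAST+ 2.17.0 and promoter windows read from RefSeq tables. Fdps, Fdft1 and Sqle had no promoter entry. The values of 1 further enzyme are not reported here.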

Additional observations from a re-analysis of the deposited data

Results flagged for a closer look

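The ratios here are of single libraries and were set apart because a gene's ratio in 1 cell class lay on the other side of 1 from its ratio in another class, each at least 1.5-fold away with 5 CPM added and with a 95% counting interval that does not hold 1. The differences between classes were not tested. Ch25h had ratios to control of 0.264 in basal-like and 0.271 in cycling keratinocyte-like cells of the 2-week knockout, against 4.01 in upper hair follicle-like and 4.85 (1.04 to 24.4, from 5 and 4 UMIs) in fibroblast-like cells. In the 3-week knockout the Ch25h ratios were 0.462 in basal-like and 0.415 in cycling cells, against 4.08 in upper hair follicle-like cells. Fdps in the 3-week knockout had a ratio of 2.72 in dermal papilla-like cells and 0.544 in T or natural killer-like cells. The upper hair follicle-like Ch25h ratios turned below 1 in 4 of 14 alternatives at 2 weeks, where the lowest was 0.362, and in 5 of 14 at 3 weeks, the fibroblast-like ratio was 1.41 with cells thinned to 2000 UMIs, and the Fdps ratio in T or natural killer-like cells turned above 1 in 4 of 13 alternatives, up to 1.62. Suprabasal markers lay on the same side of control as Fdps in both classes, and the part of such transcripts was not tested.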

How the results depend on the processing

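No paired analysis was possible because each group has 1 library, and for the same reason no replicate could be left out. Member ratios in single classes were run if at least 1.5-fold from control with 5 CPM added and a counting interval without 1. Ch25h in basal-like cells was run apart from these. Member ratios nearer to 1 were not run, so the count below says nothing of their stability. Of the 22 ratios so chosen, 19 stayed on the same side of 1 under all alternatives run. The exceptions were Ch25h in upper hair follicle-like cells, at 2 and 3 weeks, and Fdps in T or natural killer-like cells at 3 weeks. That Ch25h ratio turned to 0.431 and 0.453 with doublets kept, 0.450 and 0.446 at Leiden resolution 0.5, 0.409 and 0.277 with each library clustered on its own, 0.362 and 0.437 with cluster 3 in the class, and 0.834 at 3 weeks at resolution 2. The Fdps ratio turned to 1.08 as a mean over cells, 1.16 with cells thinned to 2000 UMIs, 1.62 with libraries clustered on their own and 1.35 without the highest cell. The causes were not tested.

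Ch25h stayed below 1 throughout. Its epithelial ratio was 0.338 and 0.543 as a mean over cells, 0.444 and 0.604 with clusters weighted equally, and 0.502 at 3 weeks by median of ratios. Its basal-like ratio was 0.305 and 0.524 as a mean over cells and 0.393 and 0.884 with clusters weighted equally. The 6-enzyme sum crossed 1 in basal-like cells at both times and in epithelial cells at 3 weeks. At 2 weeks the epithelial sum stayed below 1, from 0.886 to 0.996 over the alternatives. In epithelial cells the 2-week and 3-week sums were 0.941 and 1.02 as a mean over cells, 0.916 and 0.992 thinned, and 0.947 and 1.25 by median of ratios. They were 0.912 and 1.20 without ribosomal, mitochondrial, Malat1 and Gm42418 counts, and 0.928 and 1.14 at a 10% mitochondrial limit. With clusters weighted equally they were 0.996 and 1.07, and TMM gave 1.19 at 3 weeks. In basal-like cells it was 0.872 and 0.981 thinned, 1.09 and 1.15 with libraries clustered on their own, 0.814 and 0.860 with clusters weighted equally, 0.911 by TMM at 2 weeks, and at 3 weeks 1.15 by median of ratios, 1.12 without ribosomal and like counts and 1.02 as a mean over cells.

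With no filter beyond 10 UMIs, 198 and 382 genes were 1.5-fold higher in basal-like cells at 2 and 3 weeks (87 and 132 as reported) and 228 and 570 lower (141 and 365); median-of-ratios scaling gave 202 higher at 3 weeks. Depth limits Lss, bulge-like Ch25h and every class under 100 cells.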
